A study of Mus musculus with 31 samples.

Results

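The genes Il4, Il5, Il13, Gata3 and Il24 were followed through 3 RNA sequencing experiments on mouse T helper 17 (Th17) cells. Il4, Il5 and Il13 encode the type 2 cytokines, Gata3 encodes their transcription factor, and Il24 encodes a cytokine of the IL-10 family. They were chosen by name, with earlier results of these data known, and these 5 genes were found in each of the 3 tables of 31053 genes. The in vitro experiment used inflammatory Th17 cells, differentiated from T cells of spleen and draining lymph nodes of WT C57/B6 mice and then treated for 2 days. Its 4 groups of 3 libraries are labelled Control, dexamethasone (Dex, a synthetic glucocorticoid), TGF-β1 and TGF-β1 + Dex. In the Cyp11a1 experiment (4 WT and 6 cKO libraries) and the GR experiment (5 WT and 4 cKO libraries), naive T cells with the myelin-specific 2D2 receptor became homeostatic Th17 cells in culture and were given to Rag1 KO mice, which lack their own T and B lymphocytes. All of these recipients developed experimental autoimmune encephalomyelitis, and the 2D2+ cells were taken by sorting at its peak from brain and spinal cord, the central nervous system (CNS). Cyp11a1 encodes the enzyme that starts steroid synthesis from cholesterol, and GR is the glucocorticoid receptor, encoded by Nr3c1. The WT and cKO donors are C57/B6 by the labels, and the Cre line behind the conditional knockouts (cKO) is not given in the sources used here. The labels do not say whether libraries came from separate cultures or recipients, so p-values measure the spread between libraries, which may be technical.

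IL-4, IL-5 and IL-13 are the signature cytokines of T helper 2 (Th2) cells. IL-4 drives Th2 differentiation and the switch of B cells to IgE, IL-5 sustains eosinophils, and IL-13 acts on epithelium, mucus and airway muscle. GATA3 binds regulatory elements of the Il4, Il5 and Il13 locus, and IL-4, through its receptor and STAT6, raises GATA3 further. TGF-β is known to restrain GATA3 and Th2 differentiation, and glucocorticoids are known to lower type 2 cytokine transcription in T cells. IL-24 signals through STAT3 and receptors best known on epithelial cells, and its mouse gene is also expressed by Th2 and Th17 cells.

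Il4, Il13 and Il5 lie in 1 cluster on mouse chromosome 11 (GENCODE M21, GRCm38), with the DNA repair gene Rad50 between Il13 and Il5. Il4 spans chr11:53602982-53618669 and Il13 chr11:53631324-53634702, both on the minus strand, 12655 bases apart. Il5 spans chr11:53720794-53725106 on the plus strand. Gata3 is on chromosome 2 (chr2:9857078-9890034, minus strand) and Il24 on chromosome 1 (chr1:130882074-130887454, minus strand), in the cluster that also holds Il10, Il19 and Il20. The 250 bases before the start of the 3 clustered cytokine genes are shown because these neighbouring genes are known targets of T cell activation factors. They come from RefSeq (GRCm38.p6) and read 5′ to 3′ along the gene. Il4 has 2 annotated starts, and the upstream one is shown. Capitals mark GGAAA, the core bound by NFAT, on either strand (TTTCC is its reverse), the STAT6 spacing of TTC and GAA around 4 bases, and the GATA hexamer AGATAA.

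Il4 (chr11:53618666-53618915, minus strand): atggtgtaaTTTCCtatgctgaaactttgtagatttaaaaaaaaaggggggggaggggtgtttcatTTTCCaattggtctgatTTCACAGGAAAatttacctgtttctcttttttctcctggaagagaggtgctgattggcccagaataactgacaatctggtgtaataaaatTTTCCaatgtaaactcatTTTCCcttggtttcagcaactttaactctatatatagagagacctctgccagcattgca
Il5 (chr11:53720544-53720793, plus strand): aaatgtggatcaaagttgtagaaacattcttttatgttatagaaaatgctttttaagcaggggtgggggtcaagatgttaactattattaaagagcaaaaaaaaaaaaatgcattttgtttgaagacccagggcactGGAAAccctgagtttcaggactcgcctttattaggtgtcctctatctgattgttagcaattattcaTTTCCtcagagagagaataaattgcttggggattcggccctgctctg
Il13 (chr11:53634703-53634952, minus strand): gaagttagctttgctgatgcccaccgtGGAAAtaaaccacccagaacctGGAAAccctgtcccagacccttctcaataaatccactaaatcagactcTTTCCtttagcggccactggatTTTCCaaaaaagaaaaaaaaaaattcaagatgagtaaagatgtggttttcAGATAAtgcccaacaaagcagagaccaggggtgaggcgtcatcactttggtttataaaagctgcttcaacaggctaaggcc

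The Il4 window shown held 5 copies of GGAAA, the Il13 window 4 and the Il5 window 2, counted on both strands. Of 32851 mouse promoter windows of the same length, 55.6% held at least 1 copy, 21.4% at least 2, 1.59% at least 4 and 0.39% at least 5. The Gata3 window held 2 copies. The Il4 window shown also held 1 match to the STAT6 spacing, present in 5.85% of windows, which overlaps 1 of its GGAAA copies. The window of the other annotated Il4 start held no copy of GGAAA and no match to the STAT6 spacing. AGATAA occurred once in the Il13 window and in 9.99% of all windows. The letters CAGAC, the SMAD box read by the TGF-β pathway, occurred once in this Il4 window, 2 times in the Il13 window and in 42.2% of all windows. The glucocorticoid receptor spacing ACANNNTGT (5.84% of windows), the AP-1 site TGANTCA (6.75%), the GATA hexamer TGATAA (7.94%) and the SMAD palindrome GTCTAGAC (0.167%), each searched on both strands, were not found in the windows of Il4, Il5, Il13 or Gata3. A match describes letters in these windows, not binding.

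Library totals ran from 2769203 to 4291149 counts in vitro, 4322688 to 5118543 in the Cyp11a1 experiment and 3552871 to 5623305 in the GR experiment. Levels are in CPM, the counts scaled to library size. A count of 0 allows up to 3 counts, which is 0.632 to 1.13 CPM in vitro, 0.522 to 0.795 in the Cyp11a1 and 0.495 to 1.05 in the GR libraries, for counting error only. The share of counts on repeat-like predicted genes was 11.7% to 30.8% in vitro, 15.4% to 39.0% in the Cyp11a1 and 16.3% to 55.7% in the GR libraries. All 10 T cell markers were present in each group. In culture Il17a, the defining Th17 cytokine, averaged 19.2 ± 5.83 CPM in Control and 46.1 ± 25.8 CPM with TGF-β1 (SD, n = 3 each). Its log2 fold change was 0.07 ± 0.53 (SE) with Dex against Control (edgeR adjusted p = 0.983). With both treatments against Dex it was 0.64 ± 0.50 (edgeR adjusted p = 0.697). Summed levels of 18 myeloid and microglial markers were 12.9 to 22.5 CPM in vitro, 307 to 1086 CPM in the Cyp11a1 libraries and 3741 to 21044 CPM in the GR libraries. The GR libraries therefore stood apart in myeloid RNA, and from one another by several-fold. In the GR experiment the targeted gene Nr3c1 was at 14.9 ± 2.38 CPM in WT (n = 5) and 8.43 ± 1.42 CPM in cKO (n = 4), with no overlap between groups, but edgeR gave an adjusted p of 0.58. Cyp11a1 had 0 counts in all 4 WT libraries of its experiment and 4 counts in 1 of 6 cKO libraries, so the CNS data hold no check of that deletion.

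Il5, the eosinophil cytokine, was strongly lowered in culture by either treatment and close to undetected with both. The Control libraries held 101, 104 and 111 counts of Il5, which is 35.3, 28.3 and 27.0 CPM. With Dex the counts were 6, 11 and 3, with TGF-β1 6, 11 and 5, and with both 2, 0 and 3. Every treated library lay far below every Control library, and every library with both treatments was below every library with 1 treatment. Mean levels were 30.2 ± 4.47 CPM in Control, 1.95 ± 1.02 with Dex, 2.32 ± 0.835 with TGF-β1 and 0.437 ± 0.379 with both (SD, n = 3). The log2 fold change against Control was -3.89 ± 0.33 (SE) for Dex and -3.67 ± 0.33 for TGF-β1, with edgeR adjusted p = 7.83e-05 and 3.28e-05. For both treatments it was -5.89 ± 0.42 (edgeR adjusted p = 2.70e-06). With so few counts, this SE is smaller than counting error alone would give. With both, all 3 libraries were at or under 3 counts, and the summed counts, scaled for depth, put Control 62.7 times higher with a 95% counting interval from 26.6 to 194. This interval holds counting error of the pooled counts only and leaves out the spread between libraries. Il5 is overlapped by the predicted gene Gm12214, and the libraries keep no strand. That gene had 0, 3 and 26 counts in the Control libraries and 4 in 1 Dex library, and its part in the Il5 counts was not tested.

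Il13, which shares the IL-4 receptor chain and acts on epithelium, showed values of the same order. Its counts were 123, 135 and 169 in Control, 22, 10 and 16 with Dex, 10, 8 and 24 with TGF-β1, and 1, 1 and 5 with both. The 4 groups averaged 40.3 ± 3.20, 4.91 ± 2.04, 4.45 ± 2.54 and 0.581 ± 0.409 CPM. Control libraries were again above all others, and the Dex and TGF-β1 libraries overlapped with each other but not with the combination. Il13 fell by 3.05 on the log2 scale with Dex and by 3.16 with TGF-β1, each with an SE of 0.32 (edgeR adjusted p = 0.000241 and 0.000127). With both it fell by 5.86 with an SE of 0.43 (edgeR adjusted p = 3.76e-06), and Control was 60.5 times higher in summed counts (95% counting interval 29.1 to 151). As for Il5, this SE is smaller than counting error alone would give, and the interval leaves out the spread between libraries.

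Il4, the cytokine that drives Th2 differentiation, was lowered by TGF-β1, while its lower level with Dex did not pass the test. The Control libraries held 120, 179 and 211 counts (42.0, 48.8 and 51.4 CPM) and the Dex libraries 114, 76 and 102 counts (35.2, 20.8 and 33.2 CPM). TGF-β1 libraries held 31, 52 and 27 counts (11.7, 15.03 and 8.17 CPM), and libraries with both 17, 37 and 51 counts (5.78, 12.9 and 10.7 CPM). The Dex libraries were below Control and above all libraries with TGF-β1, whereas TGF-β1 alone and the combination overlapped. The log2 fold change was -0.68 ± 0.23 for Dex (edgeR adjusted p = 0.195), -2.02 ± 0.26 for TGF-β1 (edgeR adjusted p = 0.000735) and -2.26 ± 0.27 for both (edgeR adjusted p = 0.0002). 

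Gata3, the transcription factor of the type 2 programme, followed the order seen for Il4. Control libraries were at 110.2, 107 and 119 CPM and Dex libraries at 48.4, 81.5 and 66.0 CPM. TGF-β1 libraries were at 31.0, 28.0 and 34.5 CPM and libraries with both at 26.2, 17.1 and 39.8 CPM. The highest Dex library was below the lowest Control library, and the lowest Dex library was above all 6 libraries with TGF-β1. The log2 fold change against Control was -0.78 ± 0.22 for Dex (edgeR adjusted p = 0.110), -1.85 ± 0.24 for TGF-β1 (edgeR adjusted p = 0.000735) and -1.97 ± 0.24 for both (edgeR adjusted p = 0.000264). By DESeq2 the Dex difference passed the threshold, with an adjusted p of 0.0209.

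Il24, the IL-10 family cytokine, was by far the most abundant of the 5 and was lowered by Dex but not detectably by TGF-β1. Control libraries held 2750, 2806 and 3517 counts (962, 765 and 856 CPM), and Dex libraries 2011, 1864 and 1644 (621, 510.1 and 535 CPM). TGF-β1 libraries held 1948, 2708 and 2634 counts (736, 783 and 797 CPM), and libraries with both 1670, 1338 and 2882 (567.96, 468 and 607 CPM). TGF-β1 libraries overlapped Control, and the Dex and combination libraries overlapped each other and lay below all Control and TGF-β1 libraries. Il24 fell by 0.63 on the log2 scale with Dex and by 0.65 with both, each with an SE of 0.10 (edgeR adjusted p = 0.00802 and 0.00204). With TGF-β1 alone the log2 fold change was -0.16 ± 0.10 (edgeR adjusted p = 0.536).

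**Figure D1:**
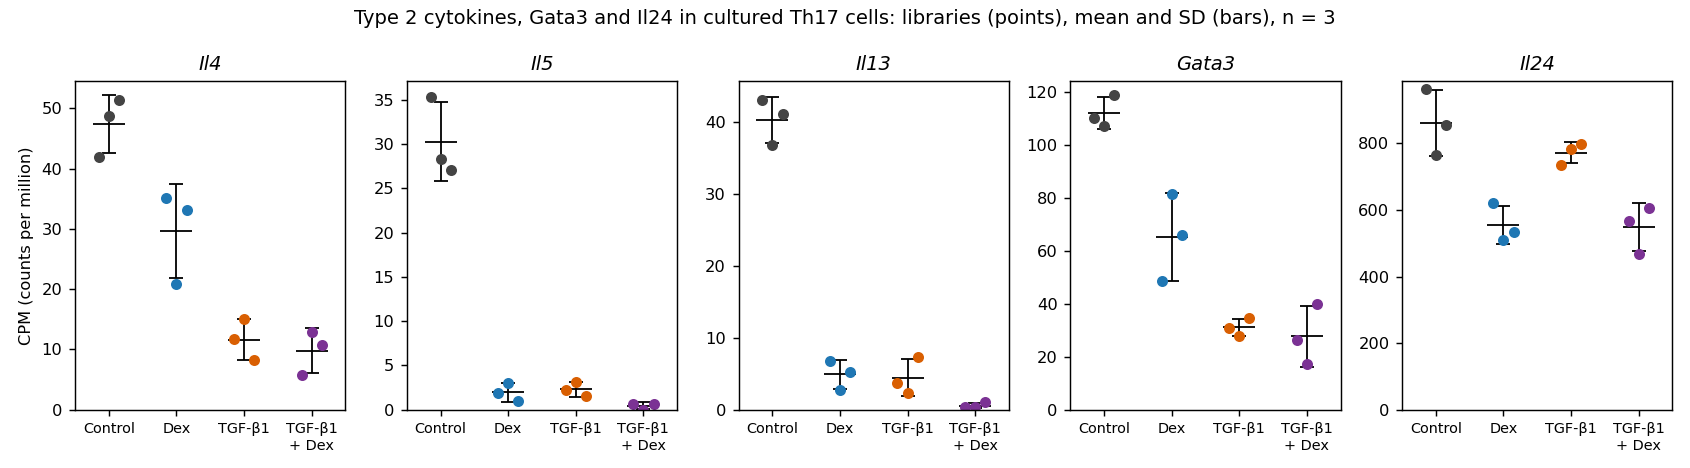
Levels in CPM (vertical axes, linear and from 0) of Il4, Il5, Il13, Gata3 and Il24 in the 4 cultured groups, with 1 point per library and bars for mean and SD (n = 3). Il5 and Il13 drop to a few CPM with either treatment, Il4 and Gata3 step down from Control through Dex to TGF-β1, and Il24 is lower in the Dex and TGF-β1 + Dex groups.

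Against Control, edgeR therefore called 3 of the 5 genes lower with Dex, 4 with TGF-β1 and 5 with both. Of the 10332 genes tested, 0.91%, 1.36% and 3.14% were called lower in these comparisons. The median log2 fold change of the 5 genes was -0.78, -2.02 and -2.26, beside 0.0026, -0.00028 and 0.0011 over all genes tested. All 5 genes had every Dex library below every Control library, as did 9.47% of all genes. With TGF-β1 this held for 4 (10.4% of all genes) and with both for 5 (12.1% of all genes). The 5 genes were chosen with earlier results of these data known, so the shares describe them and do not test them as a set. These 3 comparisons share the Control libraries. In bulk RNA, fewer cells that express a gene and less RNA per cell cannot be told apart.

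The 2 comparisons among treated groups showed what each agent did in the presence of the other. Adding TGF-β1 to Dex lowered 3 of the 5 genes in edgeR, where 1.16% of all genes were called lower. In 4 of them, Il4, Il5, Il13 and Gata3, every library with both was below every Dex library, as in 8.94% of all genes. Il4 fell by 1.58 on the log2 scale (SE 0.28, edgeR adjusted p = 0.00734), Il13 by 2.81 (SE 0.57, edgeR adjusted p = 0.0202) and Gata3 by 1.20 (SE 0.24, edgeR adjusted p = 0.0202). Il13 and Il5 entered this test only through groups outside the comparison, such as Control, where they are high. With the compared groups alone both had too few counts to be tested, and 1 of the 3 genes tested was called. The Il13 call was lost without Dex replicate 1 or 3 or TGF-β1 + Dex replicate 1 or 2, and the Gata3 call without Dex replicate 2 or 3 or TGF-β1 + Dex replicate 1, with edgeR adjusted p from 0.0659 to 0.0909. Il5 differed by -1.998 ± 0.621 (edgeR adjusted p = 0.139) and Il24 by -0.02 ± 0.10 (edgeR adjusted p = 0.981).

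Adding Dex to TGF-β1 gave no call among the 5 genes in edgeR, where 0.532% of all genes were called in either direction. The differences were -2.70 ± 0.59 for Il13, -2.22 ± 0.61 for Il5 and -0.49 ± 0.10 for Il24, with edgeR adjusted p = 0.0735, 0.178 and 0.0667. Here too Il13 and Il5 had too few counts to be tested with the compared groups alone. In Il13, Il5 and Il24 every library with both treatments was below every TGF-β1 library, as in 8.03% of all genes. DESeq2 called Il13 (adjusted p = 0.00803) and Il24 (adjusted p = 0.000373) in the same comparison. Il4 differed by -0.24 ± 0.31 and Gata3 by -0.13 ± 0.26 with overlapping libraries (edgeR adjusted p = 0.907 and 0.952).

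Whether the Dex effect differed with and without TGF-β1 was tested as an interaction. It was 0.45 ± 0.39 for Il4, 0.65 ± 0.34 for Gata3, 0.35 ± 0.93 for Il13, 0.14 ± 0.15 for Il24 and 1.67 ± 0.89 for Il5 on the log2 scale, where 0 means that the effects add. None of the 5 passed in edgeR, and neither did any of the 10332 genes, although 552 had an unadjusted p under 0.05. DESeq2 called 6 genes in this test, none of them among the 5. The combination group held 5 counts of Il5 and 7 of Il13 in all, and these terms have the largest SE of the 5.

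Per kilobase of exon, Il24 stood highest in Control at 621 ± 71.3 CPM, followed by Il4 at 38.6 ± 3.95, Il13 at 33.5 ± 2.66, Gata3 at 28.2 ± 1.56 and Il5 at 19.7 ± 2.91. The ranges of Il4 and Il13 overlapped, and the other neighbours in this order did not. With Dex the order became Il24, Il4, Gata3, Il13 and Il5, at 400.5, 24.2, 16.4, 4.07 and 1.27 CPM per kilobase. The same order held with TGF-β1 (557, 9.49, 7.84, 3.69 and 1.51) and with both (395, 8.004, 6.97, 0.482 and 0.285). In each treated group Il4 and Gata3 overlapped, and with TGF-β1 or both so did Il13 and Il5.

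Of 10 genes beside the 5 on their chromosomes 7 could be tested, and Rad50 was the 1 that was called. Rad50, the DNA repair gene whose body holds the Th2 locus control region, averaged 34.6 CPM in Control, 21.7 with Dex, 20.8 with TGF-β1 and 13.6 with both. Its highest treated library, at 23.0 CPM, was below its lowest Control library, at 32.2 CPM. Rad50 fell by 0.67, 0.74 and 1.33 on the log2 scale against Control (edgeR adjusted p = 0.0127, 0.00423 and 3.07e-05), and by 0.66 with TGF-β1 + Dex against Dex (edgeR adjusted p = 0.0188). Kif3a, a kinesin gene 1015 bases from Il4, had log2 fold changes of -0.37 ± 0.23, -0.50 ± 0.23 and -0.70 ± 0.24, none past the threshold (edgeR adjusted p = 0.546, 0.337 and 0.112). Irf1, 44908 bases beyond Il5, and Fcmr and Mapkapk2 beside Il24 were not called either. Il10, the regulatory cytokine of the Il24 cluster, held 3, 7, 6 and 23 counts over the 3 libraries of Control, Dex, TGF-β1 and both, and was under the low-count filter. Il19 and Il20 held 0 to 4 counts per group.

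**Figure D2:**
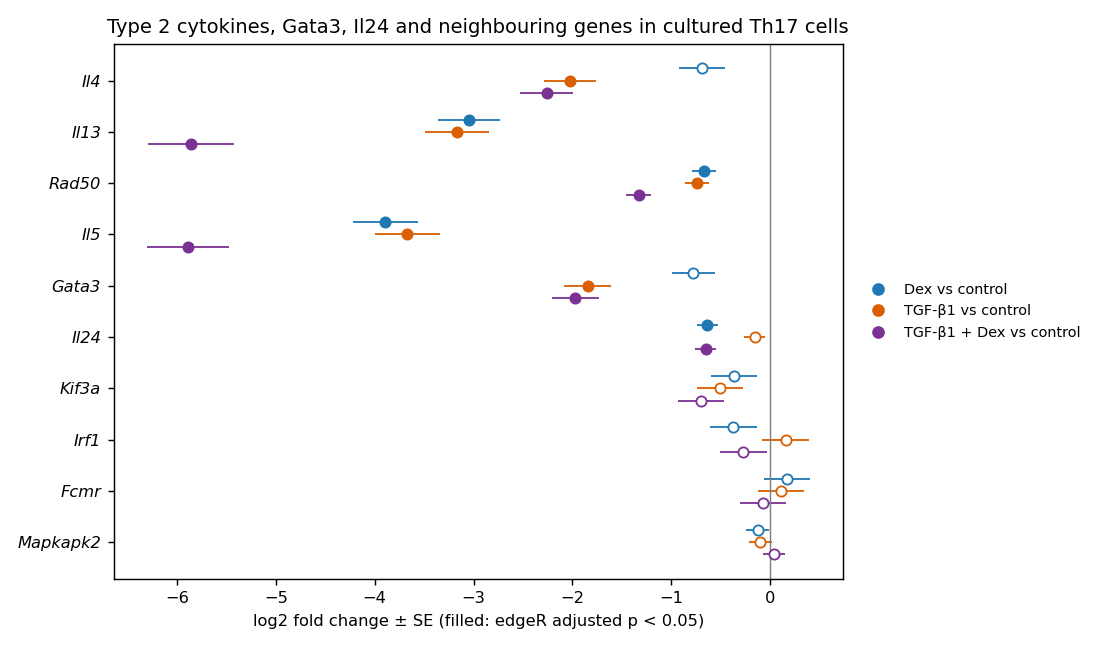
Log2 fold changes against Control (horizontal axis, bars are SE) of the 5 genes and their neighbours for Dex, TGF-β1 and both, with filled points for edgeR adjusted p under 0.05. Il13 and Il5 lie furthest left, Rad50 between them on the chromosome is filled in all 3 comparisons, and Kif3a, Irf1, Fcmr and Mapkapk2 are open.

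Of 10 receptor chains 2 could be tested, and neither was called in any comparison. Il4ra, the chain shared by the IL-4 and IL-13 receptors, averaged 273, 263, 252 and 242 CPM in Control, Dex, TGF-β1 and both, and Il2rg, the common gamma chain, 543, 490.3, 517 and 503 CPM. Among 14 kinase, STAT and inhibitor genes, 13 were tested. Dex lowered 1, Stat5a, which relays IL-2 signals that also favour Il4 expression, by 0.50 on the log2 scale (edgeR adjusted p = 0.0375). TGF-β1 raised 3, Stat5a by 0.64 ± 0.11, the cytokine feedback inhibitor Socs3 by 0.84 ± 0.10 and Stat3, the STAT of IL-24 and IL-6 signals, by 0.42 ± 0.06 (edgeR adjusted p = 0.00393, 0.000525 and 0.00168). With both, Stat3, Socs3 and Stat6 were higher. Stat6, the factor downstream of IL-4, rose by 0.30 ± 0.08 with both (edgeR adjusted p = 0.0320), and with TGF-β1 alone its log2 fold change was the same size without passing (edgeR adjusted p = 0.05004). With Dex added to TGF-β1, Stat5a fell by 0.60 (edgeR adjusted p = 0.0213). With TGF-β1 added to Dex, Stat3, Stat5a and Socs3 rose by 0.53, 0.54 and 0.74 (edgeR adjusted p = 0.000308, 0.0185 and 0.00153).

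Transcription factors known to favour Gata3 or the type 2 cytokines moved in both directions. Over all genes tested, 0.919%, 1.93% and 3.12% were called higher with Dex, TGF-β1 and both. Of 18 such genes 17 were tested. Dex lowered 1 of them, TGF-β1 raised 2 and lowered 2, and both together raised 3 and lowered 3. Batf, an AP-1 factor needed for Th17 and Th2 cytokines, averaged 255, 203, 149 and 128 CPM in Control, Dex, TGF-β1 and both, and fell by 0.77 with TGF-β1 and 0.99 with both (edgeR adjusted p = 0.000849 and 6.59e-05). It also fell by 0.66 with both against Dex (edgeR adjusted p = 0.00329). The chromatin organiser Satb1 fell by 0.35 and 0.33 with TGF-β1 and both (edgeR adjusted p = 0.0213 and 0.0205), and Rbpj, the Notch effector, by 0.32 with Dex and 0.24 with both (edgeR adjusted p = 0.0277 and 0.0479). Maf, which activates the Il4 promoter, went the other way at low levels, from 1.37 ± 0.33 CPM in Control to 4.21 ± 0.42 with TGF-β1 and 4.58 ± 0.17 with both (log2 fold changes 1.57 and 1.68, edgeR adjusted p = 0.0149 and 0.00555). Irf4 rose by 0.33 with TGF-β1, 0.31 with both and 0.37 with both against Dex (edgeR adjusted p = 0.0129, 0.0132 and 0.00811). Notch2 rose by 0.49 with both (edgeR adjusted p = 0.0486).

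Of 13 genes known to oppose the type 2 programme, 7 were tested, and Zbtb32 was the 1 called. Zbtb32, a repressor that binds GATA3, averaged 124 ± 5.32 CPM in Control and 79.2 ± 1.27 with Dex, and fell by 0.65 with Dex and 0.58 with both (edgeR adjusted p = 0.0015 and 0.000973). Tbx21, which encodes T-bet, the Th1 factor that counteracts GATA3, averaged 17.4 ± 5.18 CPM in Control, 7.48 ± 3.04 with Dex, 15.4 ± 8.42 with TGF-β1 and 8.60 ± 6.32 with both. None of its comparisons with Control was called, with edgeR adjusted p = 0.311, 0.920 and 0.269 against Control.

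Of 10 surface and effector genes typical of Th2 cells, 5 were tested. The chemokine receptor Ccr8 averaged 144, 88.3, 81.5 and 51.7 CPM in Control, Dex, TGF-β1 and both, with log2 fold changes of -0.70, -0.81 and -1.46 against Control (edgeR adjusted p = 0.0139, 0.00315 and 2.10e-05). It also fell by 0.76 with both against Dex (edgeR adjusted p = 0.0081). Ecm1, a matrix protein that promotes Th2 cell egress from lymph nodes, rose instead, by 0.67 with Dex, 0.54 with both and 0.71 with both against TGF-β1 (edgeR adjusted p = 0.00339, 0.00407 and 0.00507). Il1rl1, the IL-33 receptor of Th2 cells, held 0 to 2 counts per cultured group, and Ptgdr2, the prostaglandin D2 receptor, held 0 counts in each.

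Among 6 other cytokines often made with type 2 cytokines, 3 were tested, and 2 of them moved in different ways. Il3, the growth factor for mast cells and basophils, averaged 70.7 ± 23.7 CPM in Control, 13.5 ± 0.13 with Dex, 13.1 ± 3.07 with TGF-β1 and 2.81 ± 3.09 with both. It fell by 2.37, 2.43 and 4.65 on the log2 scale against Control (edgeR adjusted p = 0.00583, 0.00252 and 5.91e-05), and by 2.28 with both against Dex (edgeR adjusted p = 0.0478). Il9, the cytokine of Th9 cells, averaged 35.3 ± 15.6 CPM in Control, 3.602 ± 1.73 with Dex, 301 ± 112 with TGF-β1 and 170 ± 37.2 with both. It fell by 3.30 with Dex (edgeR adjusted p = 0.0255) but rose by 3.10 with TGF-β1 and 2.28 with both (edgeR adjusted p = 0.00116 and 0.00472), and it rose by 5.58 with both against Dex (edgeR adjusted p = 0.000279).

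**Figure D3:**
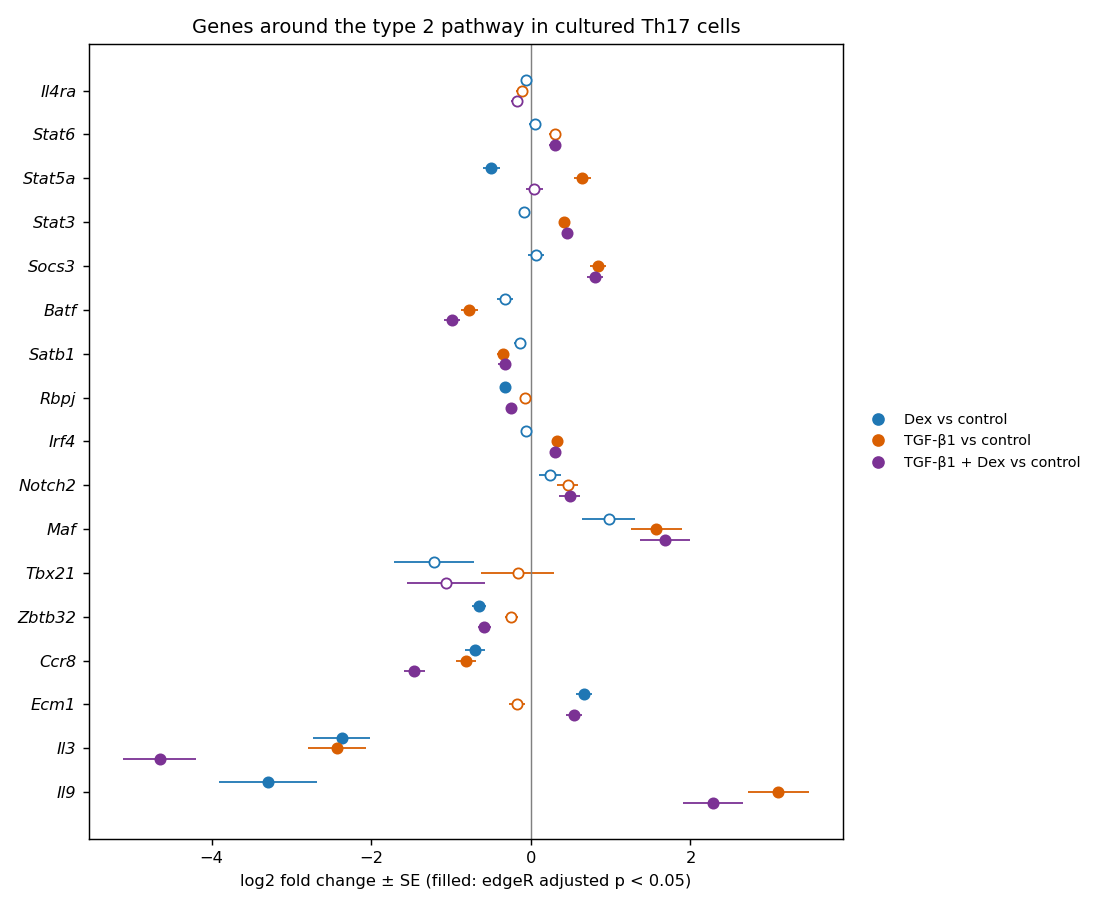
Log2 fold changes against Control (horizontal axis, bars are SE) of receptor, signalling, transcription factor, Th2 marker and cytokine genes, with filled points for edgeR adjusted p under 0.05. Il3 and Ccr8 are lower in all 3 comparisons, Il9 is lower with Dex and higher with TGF-β1, and Maf, Socs3 and Stat3 are higher with TGF-β1.

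Markers of other cell types were low in culture, though some differed between groups. Of 13 mast cell and basophil markers, 9 to 11 were at 0 in every group, among them Fcer1a, Ms4a2, Cpa3 and Prss34. Their summed level was 0 to 3.15 CPM in Control, 0.975 to 2.16 with Dex, 4.84 to 7.52 with TGF-β1 and 4.00 to 5.10 with both, mostly from Kit. Of 5 eosinophil markers, Epx was at 0 in all 12 libraries. Their summed level was 3.499 to 11.4 CPM in Control, 1.37 to 3.90 with Dex, 0.378 to 2.12 with TGF-β1 and 0.632 to 3.15 with both, and its part in the lower Il5 and Il13 was not tested. The 6 markers of NK and CD8 T cells summed to 19.1 to 22.0 CPM in Control, 20.7 to 27.4 with Dex, 10.1 to 13.3 with TGF-β1 and 12.6 to 26.9 with both, mostly from Cd8b1 and Gzma, with Ncr1 at 0 in all groups. The TGF-β1 sums lay below all Control sums, and their part in the lower Il4, Il5, Il13 and Gata3 was not tested. The summed T cell markers were at 2725 to 2796 CPM in Control and 2460 to 2648 CPM in the treated libraries, although edgeR called Trbc2 lower in all 3 comparisons with Control (log2 fold changes -0.31, -0.29 and -0.45), Cd5 lower with Dex (-0.40) and Cd247 lower with both (-0.43), and Cd5 higher with both against Dex (0.26), with edgeR adjusted p between 0.000978 and 0.0492. Of 7 Th17 genes, 6 were tested. The chemokine receptor Ccr6 rose by 1.16 with Dex, 2.65 with TGF-β1 and 3.32 with both, Rora by 1.21 with TGF-β1 and 0.82 with both, and Il17f by 2.25 and 2.27 in the same comparisons. With both against Dex, Ccr6 rose by 2.16 and Rora by 0.93. These Th17 calls had edgeR adjusted p from 1.38e-06 to 0.0315.

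Across the 12 cultured libraries the 5 genes tracked one another to different degrees. Il5 and Il13 were closest, with a Pearson r of 0.92 of log2 CPM. Gata3 had r of 0.85 with Il13, 0.84 with Il5 and 0.83 with Il4, and Il4 had r of 0.81 with Il13 and 0.74 with Il5. Il24 had r of 0.78 with Il5, 0.76 with Il13, 0.45 with Gata3 and 0.34 with Il4. These r are descriptions over 12 libraries that share 4 treatments. Among 7130 expressed genes with established names, the highest r was with Mboat1, Stat4, Cst7, Rfc3 and Ptprc for Il4 (0.97 to 0.95). For Il5 it was with Magoh, Lif, Psma5, Nabp1 and Elmo2 (0.97 to 0.95), and for Il13 with H2-DMb2, Tarbp2, Lif, Cct7 and Rassf5 (0.97 to 0.95). For Gata3 these genes were Nsmce1, Tnfrsf8, Batf, Pmm1 and Ccdc184 (0.97 to 0.93), and for Il24 Cd200, Rbpj, Sh2d2a, Crabp2 and Cd52 (0.93 to 0.90).

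In the CNS the 4 cytokine genes were low, with at most 38 counts in any library. Gata3 alone had enough counts for edgeR in both genotype comparisons. In the Cyp11a1 experiment Gata3 was at 42.3, 34.7, 29.2 and 36.3 CPM in WT. In cKO it ranged from 27.5 to 55.9 CPM with a median of 33.7. The groups overlapped, at 35.6 ± 5.39 (SD, n = 4) and 36.3 ± 9.94 CPM (SD, n = 6), and the log2 fold change was 0.03 ± 0.17 (edgeR adjusted p = 0.983). Of the 10125 genes tested in this experiment 0.178% were called. In the GR experiment Gata3 was at 25.6, 24.1, 26.3, 24.6 and 28.4 CPM in WT and 25.05, 31.3, 24.3 and 21.0 CPM in cKO. The groups overlapped, and the log2 fold change was -0.01 ± 0.13 (edgeR adjusted p = 0.985). In that comparison edgeR called 0 of 10597 genes (0%), with 870 at an unadjusted p under 0.05, and DESeq2 called 3.

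Il4 in the CNS was low, at 0 to 19 counts per library. In the Cyp11a1 experiment its counts were 5, 19, 0 and 0 in WT and 11, 4, 8, 0, 0 and 8 in cKO, and in the GR experiment 3, 4, 6, 9 and 0 in WT and 0, 3, 0 and 0 in cKO. The mean log2(CPM + 1) in cKO differed from WT by 0.11 in the Cyp11a1 experiment and by -0.71 in the GR experiment, with overlapping groups in each (exact two-sided permutation p = 0.886 and 0.0714).

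Il5 had 3, 1, 0 and 0 counts in Cyp11a1 WT and 0, 1, 0, 0, 1 and 2 in Cyp11a1 cKO. In the GR experiment it had 1, 3, 3, 4 and 1 counts in WT and 0 in all 4 cKO libraries. The GR groups did not overlap, with a difference of -0.60 in mean log2(CPM + 1). The exact two-sided permutation p was 0.0159, the smallest that 4 against 5 libraries allow. This comparison was 1 of 8 such tests. Among 4720 genes under the low-count filter with at least 10 counts in the GR table, 4.77% had an exact p under 0.05 and 0.657% had every cKO library below every WT library. All but 1 of the 9 libraries were at or under 3 counts, so the difference rests on single counts, and no fold is stated. Gm12214, the gene over Il5, had 4 counts in WT replicate 2, 3 in WT replicate 4 and 0 in the other WT and all cKO libraries. The median sum of myeloid markers was 8106 CPM in WT and 18020 CPM in cKO. WT replicates 2, 3 and 4, with 3, 3 and 4 counts of Il5, had sums of 8106, 3741 and 4983 CPM, and WT replicates 1 and 5, with 1 count each, 17410 and 19668 CPM. The 4 cKO libraries, at 0 counts of Il5, had sums of 15597, 9632, 21044 and 20443 CPM. The part of Gm12214 or of the myeloid RNA in the Il5 difference was not tested. The Cyp11a1 comparison of Il5 gave a difference of -0.06 (exact permutation p = 0.786).

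Il13 reached countable levels in 2 GR WT libraries, with 0, 4, 38, 20 and 0 counts in WT and 0, 8, 1 and 0 in cKO. The groups overlapped, and the exact two-sided permutation p was 0.365. WT replicates 3 and 4, with 38 and 20 counts of Il13, had the lowest summed myeloid markers of the 9 libraries, at 3741 and 4983 CPM, and WT replicates 1 and 5, with the highest sums of the WT group, had 0 counts. Replicates 3 and 4 of WT also had the lowest summed Th17 genes of the 9 libraries, at 74.6 and 40.9 CPM. Their summed NK and CD8 T cell markers were the highest, at 71.6 and 80.3 CPM, with WT replicate 2 close at 70.7 CPM. The part of the myeloid RNA or of these other differences in the Il13 counts was not tested. In the Cyp11a1 experiment Il13 had 0, 4, 3 and 0 counts in WT and 2, 0, 2, 1, 0 and 1 in cKO (exact permutation p = 0.610).

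Il24, at 1338 counts or more in every cultured library, was scarce in the CNS. It had 0, 0, 14 and 0 counts in Cyp11a1 WT and 0, 1, 0, 0, 0 and 0 in Cyp11a1 cKO. In the GR experiment it had 0, 1, 1, 1 and 0 counts in WT and 0, 13, 0 and 0 in cKO. In each experiment 1 library held nearly all counts, and the exact two-sided permutation p was 0.400 and 0.802. Cultured and CNS cells were differentiated differently and measured in separate tables, so their levels are set side by side without a test.

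**Figure D4:**
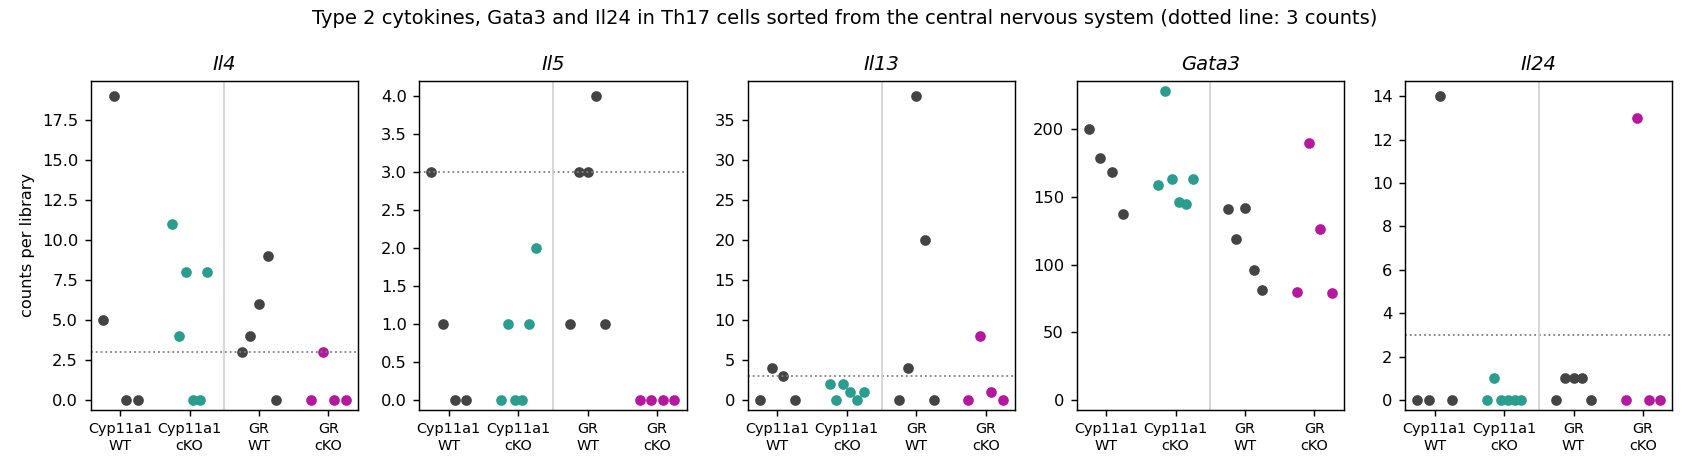
Counts per library (vertical axes, linear) of the 5 genes in Th17 cells from the CNS, with 1 point per library for Cyp11a1 WT (n = 4) and cKO (n = 6) and GR WT (n = 5) and cKO (n = 4), and a dotted line at 3 counts. Gata3 holds 79 to 228 counts in every library with overlapping groups, and most points of the 4 cytokine genes lie near 0.

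No gene of the neighbour, receptor, signalling, activator, antagonist, Th2 marker or other cytokine lists was called in either CNS comparison by edgeR. Il1rl1, the IL-33 receptor, was at 5.79 ± 2.11 CPM in GR WT and 2.38 ± 0.57 in GR cKO, with a log2 fold change of -1.28 ± 0.31 that did not pass (edgeR adjusted p = 0.580), and at 1.99 ± 2.22 and 2.38 ± 1.12 CPM in Cyp11a1 WT and cKO. Maf was far above its cultured level, at 37.6 ± 7.31 and 29.5 ± 5.31 CPM in Cyp11a1 WT and cKO and 16.5 ± 5.11 and 19.8 ± 1.31 CPM in GR WT and cKO. Its log2 fold changes, -0.35 ± 0.15 and 0.26 ± 0.22, did not pass in edgeR (adjusted p = 0.593 and 0.681). The contrast of Maf with culture was not tested, nor was the part of the myeloid RNA, which was higher in the CNS libraries. Tbx21 was at 24.1 ± 8.51 and 34.4 ± 7.01 CPM in Cyp11a1 WT and cKO and 29.6 ± 14.6 and 20.4 ± 4.03 CPM in GR WT and cKO, also without a call (edgeR adjusted p = 0.582 and 0.612). Il4ra, Stat6, Rad50 and Kif3a had edgeR adjusted p between 0.627 and 0.985 in the 2 comparisons. Il10 was under the filter in the Cyp11a1 table, at 5.14 ± 3.70 CPM in WT and 0.912 ± 0.755 in cKO, and its log2 fold change in the GR table was -0.41 ± 0.66 (edgeR adjusted p = 0.849).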

How the data were processed

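Each library was made from 2000 sorted cells by a modified SMART-Seq2 and Nextera XT protocol with paired-end reads and no strand information, per the labels' protocols. The authors deposited unnormalized counts of each gene, whole numbers in 3 tables, 1 for each experiment. RSEM 1.3.3 and mm10 are named in the submitters' processing notes, and the annotation is not given in the sources used here. All columns matched a library by name (0 left over).

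The tests used edgeR 4.0.16 in R 4.3.3 (filterByExpr, TMM, robust quasi-likelihood F tests, Benjamini-Hochberg adjusted p threshold of 0.05 over all genes tested). The 12 in vitro libraries shared 1 fit, and each CNS experiment had its own. The SE of a log2 fold change, in text and figures, is its absolute value divided by the square root of its F statistic, an approximation. For Il5 and Il13 with both treatments it can be smaller than counting error alone. Members under the filter in a CNS table were compared by exact two-sided permutation tests of log2(CPM + 1). CPM use TMM-scaled library sizes, and log2 CPM for likeness a prior count of 2. Exon lengths and positions come from GENCODE M21.

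The 5 genes, the 15 gene lists with 149 entries and the tests were chosen with earlier results of these data known. Named beside the 5 genes were Il4ra, Stat6, Maf, Tbx21, Il1rl1, Rad50, Kif3a and Il10, up to 3 genes per list, direction and in vitro comparison past the threshold with the largest change, the 5 genes of highest Pearson r with each member (among genes whose mean log2 CPM was 3 or more, without predicted genes), and Nr3c1. Other list genes are named as examples chosen after their values were seen. Alternatives were RLE and upper quartile scaling, no filter or a mean count of at least 50, removal of repeat-like predicted genes, a replicate block, limma 3.58.1 voom with sample weights, DESeq2 1.42.0, fits of only the groups compared, and leaving out each library in turn. The tests were checked on simulated counts. The result of 1 marker list is not reported here.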

Additional observations from a re-analysis of the deposited data

Results flagged for a closer look

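In 6 of 19 sets of values (1 gene in 1 CNS group of 4 to 6 libraries), 1 library stood further from the rest than Dixon's 95% limit for a group of its size. For continuous values this limit flags about 1 group in 20 by chance. That rate does not apply to 4 of the 6, where all other libraries of the group are at 0 and any lone count, even a single one, is set apart by construction. Replicate 2 of GR cKO was set apart in 3 genes, with 3 counts of Il4 (0.495 CPM), 8 counts of Il13 (1.32 CPM) and 13 counts of Il24 (2.14 CPM), where the other 3 libraries of its group held at most 1 count of any of these. The same library held 13 counts of Cyp11a1 where the other 3 held 0. Its summed myeloid markers were the lowest of the cKO group, at 9632 CPM.

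Replicate 3 of Cyp11a1 WT held 14 counts of Il24 (2.44 CPM) against 0 in the other 3 WT libraries. In Cyp11a1 cKO, replicate 2 held the single count of Il24 in its group (0.245 CPM). Replicate 2 also had the highest Gata3 level of its group, at 55.9 CPM (228 counts) against 35.0 CPM in the next library.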

How the results depend on the processing

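Against Control, Il5 and Il13 with all 3 treatments, Il4 and Gata3 with TGF-β1 or both, and Il24 with Dex or both stayed lower and past the threshold in every alternative that gave an adjusted p. DESeq2 gave none for Il5 and Il13 with Dex. Requiring a mean count of at least 50 left Il5 and Il13 untested, so that 1 gene was called with Dex, 2 with TGF-β1 and 3 with both. Gata3 with Dex passed in DESeq2 alone of 15 alternatives.

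For Dex added to TGF-β1, where edgeR called none of the 5, 1 was called without a filter (Il13, adjusted p = 0.0338), 1 at a mean count of at least 50 (Il24, adjusted p = 0.025) and 2 in DESeq2. Leaving out a library called 0 and moved Il4 between -0.44 and 0.019 and Gata3 between -0.52 and 0.11 (log2). For TGF-β1 added to Dex, 1 gene was called with the compared groups alone, where Il5 and Il13 were not tested, and 1 to 3 when a library was left out. The Il13 call was lost in limma voom (adjusted p = 0.265) and without Dex replicate 1 or 3 or TGF-β1 + Dex replicate 1 or 2 (0.0659 to 0.0814). The Gata3 call was lost without a filter (adjusted p = 0.112), with the groups alone (0.123), and without Dex replicate 2 or 3 or TGF-β1 + Dex replicate 1 (0.0659 to 0.0909). Il24 there ranged from -0.096 to 0.082 with a library left out. The Il13 interaction ranged from -0.51 to 0.94, negative without TGF-β1 + Dex replicate 3. The cause of these shifts was not tested.

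Same-numbered libraries were not treated as paired, since the correlations of their deviations from the group means did not all exceed 0.1. These ran from -0.019 to 0.073 in vitro, above 0 in all but 1 of 18 pairs, and from -0.24 to 0.12 in the CNS. In 26 of 36 in vitro checks a library correlated best with its own number, so weak pairing is a hint from the data that the labels do not settle. With a replicate block, 2 genes were called for Dex added to TGF-β1, Il13 (adjusted p = 0.0445) and Il24 (adjusted p = 0.0267). The log2 fold change of Gata3 in the GR comparison was 0.0088 with the block, and was not called. In the Cyp11a1 comparison the block called 1 gene of 10125, against 18 without it, 63 in DESeq2, 33 of 23232 without a filter and 5 in limma voom.

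In the CNS no alternative called Gata3. Its log2 fold change for Cyp11a1 was -0.011 in limma voom and -0.13 to 0.12 with a library left out. For GR it was 0.0066 with upper quartile scaling, 0.0066 at a mean count of at least 50, and -0.13 to 0.068 with a library left out. Leaving out 1 library moved the Cyp11a1 differences in log2(CPM + 1) from -0.16 to 0.58 for Il4, -0.14 to 0.097 for Il5, -0.22 to 0.055 for Il13 and -0.55 to 0.052 for Il24, and the GR difference of Il24 from -0.16 to 0.39. Without GR WT replicate 5 the Il4 difference of -0.94 had an exact permutation p of 0.0286, the smallest that 4 against 4 libraries allow. For Il5 in the GR comparison all cKO libraries are at 0 and all WT libraries above 0, so no alternative could make the groups overlap. The exact permutation p of 0.0159 to 0.0357 over these alternatives therefore says nothing about stability. With 0 to 4 counts per library, depth limits that comparison.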
